A study of Mus musculus with 18 samples.

Results

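The genes described here encode the proteins of the cytosolic ribosome. They were chosen by mouse symbol, as genes named Rpl or Rps with a number, the stalk genes Rplp0, Rplp1 and Rplp2, and Rpsa, without the Rps6k kinases and without genes whose symbol ends in -ps. Of 55416 genes in each deposited table, 89 matched, and 86 of these had at least 10 expected counts in at least 6 libraries. The annotation types 80 of the 86 as protein coding, 48 of the large and 32 of the small subunit. It types the other 6 (Rps4l, Rps12l1, Rpl32l, Rpl6l, Rps3a2 and Rps3a3) as processed pseudogenes, copies that arose from a spliced messenger RNA (mRNA).

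The small subunit of the ribosome reads the mRNA and the large subunit joins the amino acids. Ribosomal proteins are made in the cytoplasm. Most are carried into the nucleolus and built onto ribosomal RNA with the help of assembly factors that leave before the ribosome works. Many ribosomal protein mRNAs begin with a run of pyrimidines (C and T), the terminal oligopyrimidine or TOP tract, through which mTORC1 signalling sets how well they are translated. The growing oocyte is known to store large numbers of ribosomes, and granulosa cells to enlarge as they turn into luteal cells.

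All 18 mice were wild-type Balb/c females, 6 per group, with 1 ovary library per mouse. OC+SM mice were 40 weeks old and received oral Samul-tang (SM), a decoction of medicinal herbs, at 2.5 g/kg on 5 occasions a week for 4 weeks; OC mice were 40 weeks old and received distilled water; YC mice were 8 weeks old and received distilled water. All 3 groups were superovulated: a first injection of 5 IU pregnant mare serum gonadotropin was followed after 48 hours by 5 IU hCG (human chorionic gonadotropin). Ovaries were collected 16 hours after hCG, so every library describes a stimulated ovary after ovulation. OC and OC+SM mice were kept apart inside a shared cage, per the labels. A library is a whole ovary, in which fewer cells of a type and less RNA per cell cannot be told apart, and mRNA levels say nothing of how many ribosomes were present.

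Promoter sequences were at hand for 61 of the 86 members, from RefSeq on the build GRCm38.p6, and they show what the members' start sites share. The 30 bases around the first listed start (15 before it and 15 from it on) are given here for members that the comparisons turn on, in 5′ to 3′ order, with the longest run of C and T in capitals.
Rps2: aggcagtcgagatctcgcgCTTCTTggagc
Rpl5: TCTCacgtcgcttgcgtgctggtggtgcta
Rps15a: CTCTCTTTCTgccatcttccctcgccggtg
Rpsa: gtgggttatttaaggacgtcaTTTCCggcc
Rpl22l1: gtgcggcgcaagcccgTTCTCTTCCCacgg
Rps21: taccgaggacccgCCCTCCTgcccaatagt
Rps10: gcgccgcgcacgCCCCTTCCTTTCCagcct
Rpl35: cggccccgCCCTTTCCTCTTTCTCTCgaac
These windows lie at chr17:24720048-24720077 for Rps2, chr5:107900513-107900542 for Rpl5, chr9:120127751-120127780 for Rpsa, chr3:28805493-28805522 for Rpl22l1 and chr2:180257364-180257393 for Rps21, all on the plus strand. On the minus strand they lie at chr7:118116133-118116162 for Rps15a, chr17:27635230-27635259 for Rps10 and chr2:39005117-39005146 for Rpl35. The run is 18 bases long in Rpl35 and 4 in Rpl5, so the windows differ widely even among genes for subunits of 1 particle. A run of at least 8 pyrimidines lay in this window in 27 of 61 members (44.3%), against 12.4% of all 27025 promoters with an entry. The run was taken wherever it lay in the window. In Rps15a and Rpl5 it lies wholly before the listed start, so these runs and their share do not count TOP tracts.

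Short motifs were then searched in the 300 bases from 250 before to 50 after the start, on both strands. The pyrimidine word ctttcc was found in 28 of 61 members (45.9%), against 26.3% of all promoters. The word ccggaag, the core bound by ETS factors such as GABP, was found in 24 of 61 members (39.3%), against 9.12% of all promoters. The word aagatggc, the core bound by YY1, was found in 5 of 61 members (8.2%), against 2.88%, and the TATA box word tataaa in 7 of 61 members (11.5%), against 14.2%. On the gene strand alone tataaa was found in the same share of members (11.5%), against 8.88% of all promoters. The words can share letters at their ends, ctttcc and ccggaag the letters cc, and ccggaag and aagatggc the letters aag. A match describes the sequence and is not a bound site.

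Per length, in the TPM values the authors deposited (transcripts per 1000000, corrected for gene length), the members' mean levels over 18 libraries ran from 3.58 TPM for Rpl6l to 5807 TPM for Rpl41, which encodes the smallest ribosomal protein, with a median of 1514 TPM. Rplp1 (5719 TPM), a stalk protein that recruits elongation factors, and Rps29 (5497 TPM), a zinc-binding small subunit protein, followed Rpl41. Each read of a 3′ library stands for 1 transcript whatever its length, so values of 1 gene in different mice are given below as CPM, counts per 1000000 scaled by the TMM method. Division by length gives short genes high TPM values in such data, and the order above holds on that scale. Within groups the coefficient of variation of these CPM values had a median of 6.17% over the members. It was smallest for Rps16 (2.95%) and largest for Rpl6l (40.6%), which had 0.774 to 4.82 CPM in single libraries.

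The 3 matching genes that stayed under the minimum are known chiefly from other tissues. Rpl3l, the striated-muscle relative of Rpl3, had 0 to 8 counts per library. Rpl10l, a retrogene of Rpl10 that serves spermatogenesis in mouse, had 0 to 9. Rpl39l, a relative of Rpl39 studied in male germ cells, had 0 to 19, and its 5 libraries with at least 10 counts were 1 of OC+SM and 4 of YC mice. At these counts no level could be set for the 3 genes.

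Taken as 1 pool, the members held 7.93 to 8.82% of counts in OC+SM ovaries, 7.07 to 7.87% in OC ovaries and 6.77 to 7.74% in YC ovaries. The OC+SM range lay above the OC range, and the OC and YC ranges overlapped. The most abundant gene and the genes of the mitochondrial genome took another part of each library, and with both left out the share was 10.5 to 11.2% in OC+SM, 9.39 to 10.5% in OC and 9.15 to 10.2% in YC ovaries. The ratio of the OC+SM mean to the OC mean was then 1.07, and the highest OC library (OC 2, at 10.5056%) lay above the lowest OC+SM library (OC+SM 4, at 10.4782%). Large and small subunit genes kept close proportions, with summed counts of large over small of 1.31 to 1.37 in OC+SM, 1.35 to 1.38 in OC and 1.33 to 1.38 in YC ovaries.

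**Figure D1:**
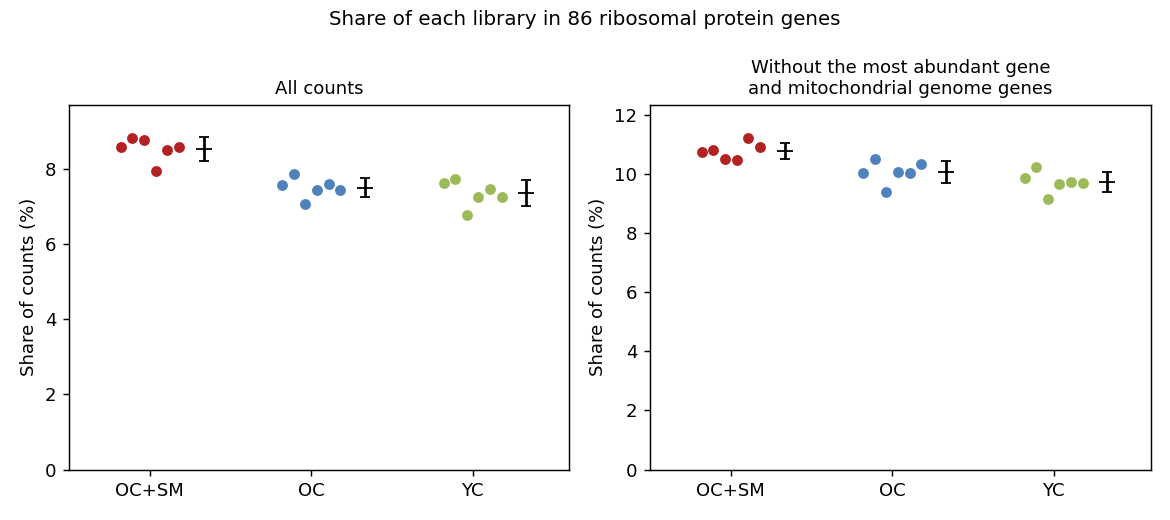
Share of each library's counts in the 86 ribosomal protein genes (y axis, %), for OC+SM, OC and YC ovaries, with all counts (left) and without the most abundant gene and the mitochondrial genome genes (right). Each point is 1 mouse and the bar at its side is the mean ± SD (n = 6); OC+SM lies at 7.93 to 8.82% and OC at 7.07 to 7.87% on the left, and the 2 groups touch on the right.

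The comparison of OC+SM with OC ovaries sets aged mice given Samul-tang for 4 weeks beside aged mice given water. Library depth differed between the same groups, as described below. Rps2, Rpl32 and Rpl5 rose in OC+SM ovaries, and 80 of 86 members had a positive log2 fold change, with a median of 0.12 (an 8.81% higher level). Of all 16959 genes tested, 51.4% had a positive value and the median was 0.01. Of the 1493 genes with a mean of at least 100 CPM, 834 had a positive value and the median was 0.02. An unadjusted p under 0.05 was found in 471 of these 1493 genes, and 270 of the 471 were higher. Of all genes 1.04% were called in either direction. The 3 called members compare with 0.548% of all genes called higher, and with 1.88% of the 1493 genes with a mean of at least 100 CPM. Calls are at an adjusted p under 0.05 in the edgeR quasi-likelihood test, with Benjamini-Hochberg adjustment over all 16959 genes. None of the 86 was called lower, where 0.489% of all genes were; at an unadjusted p under 0.05, 44 members were higher and 1 lower, against 8.61% and 8.26% of all genes. DESeq2 called 15 higher and 0 lower, and limma on log2(TPM + 1) called 8 higher and 0 lower.

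Rps2 encodes a small subunit protein at the site where mRNA enters the ribosome. It had 209.6, 221 and 265 CPM in OC+SM ovaries (lowest, median and highest), against 172, 179 and 193 CPM in OC ovaries and 137, 162 and 182 CPM in YC ovaries. Every OC+SM library lay above every OC library. Rps2 rose by a log2 fold change of 0.33 ± 0.070 (SE) over OC (edgeR adjusted p = 0.0242).

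Rpl32, a large subunit protein, had 1010.0, 1051 and 1139 CPM in OC+SM ovaries, against 810.1, 896 and 944 CPM in OC ovaries and 744, 849.9 and 911 CPM in YC ovaries. The OC+SM and OC values did not overlap, and those of OC and YC did. Rpl32 rose by a log2 fold change of 0.25 ± 0.055 (SE) over OC (edgeR adjusted p = 0.0273).

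Rpl5 binds 5S ribosomal RNA together with Rpl11, and the complex can hold back Mdm2, the ubiquitin ligase of p53. Rpl5 had 655, 744 and 780.4 CPM in OC+SM ovaries, against 547, 620.2 and 669 CPM in OC ovaries and 587, 600.4 and 621 CPM in YC ovaries. The lowest OC+SM library overlapped with the highest OC library. Rpl5 rose by a log2 fold change of 0.25 ± 0.055 (SE) over OC (edgeR adjusted p = 0.0297). Its partner Rpl11 averaged 1173 ± 71.8 CPM in OC+SM and 1058 ± 71.3 CPM in OC ovaries (SD, n = 6 each; log2 fold change 0.15, edgeR adjusted p = 0.196).

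Rps15a, a small subunit protein, had the next smallest p and was not called (994.9 ± 63.7 CPM in OC+SM and 856 ± 55.5 CPM in OC ovaries, SD, n = 6 each; log2 fold change 0.22 ± 0.058 SE, edgeR adjusted p = 0.0612). In 8 members every OC+SM library lay above every OC library, namely Rps2, Rpl32, Rpl8, Rpl9, Rpl12, Rps10, Rps16 and the pseudogene Rps3a3, where 0.849% of all genes did so. Of these 8, Rps10, which sits at the small subunit's mRNA entry side, averaged 759 ± 22.4 CPM in OC+SM and 679 ± 17.7 CPM in OC ovaries. By subunit, the median log2 fold change was 0.12 over the 48 large subunit genes, with 2 called higher, and 0.13 over the 32 small subunit genes, with 1 called higher and all 32 values positive. The calls rested on few libraries: no member was called without OC+SM 1 (Rps2 0.33, edgeR adjusted p = 0.0542) or without OC 3 (Rps2 0.31, edgeR adjusted p = 0.0594), and 10 members were called higher without OC+SM 4.

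**Figure D2:**
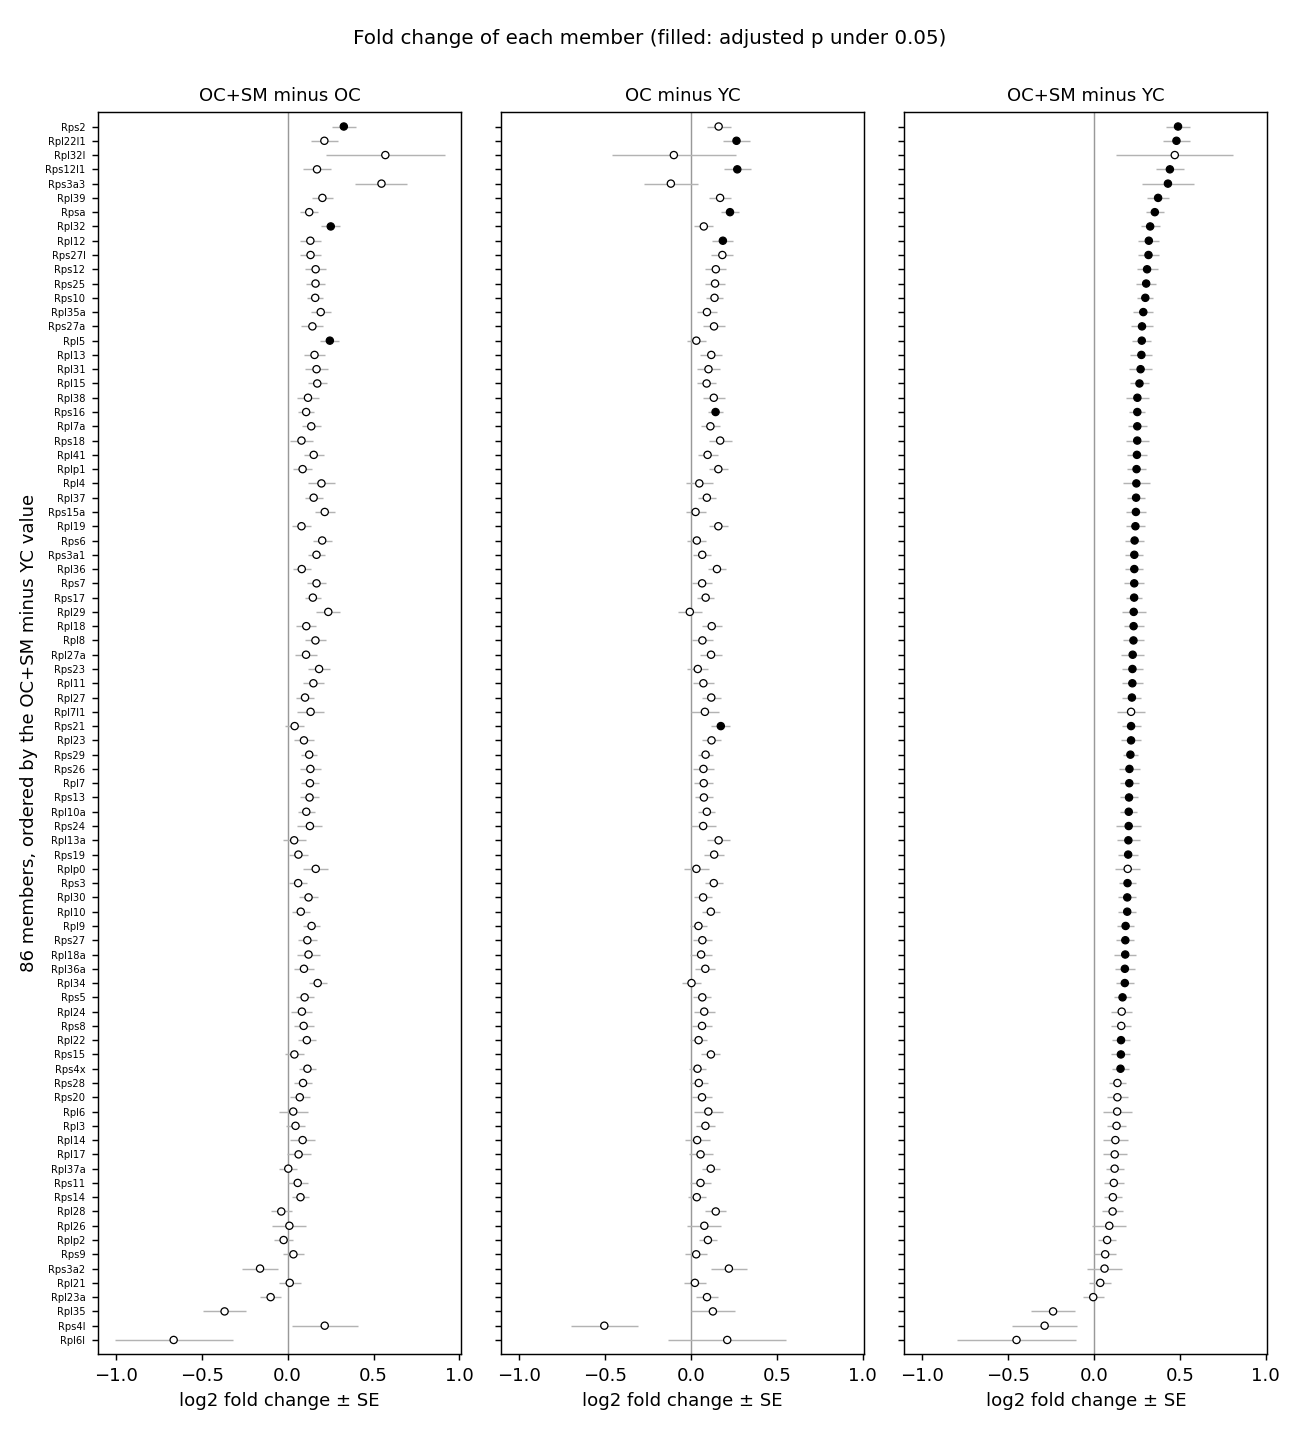
Log2 fold change of each of the 86 members (x axis, bars ± SE) in OC+SM minus OC, OC minus YC and OC+SM minus YC, in the same row order (y axis), which is that of the last comparison. Filled points have an edgeR adjusted p under 0.05; 3, 6 and 62 members are filled in the 3 panels, nearly all points lie right of 0, and Rpl35 stands apart to the left among the protein coding genes in the OC+SM panels.

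Reads of near-identical copies bear on Rps2 more than on other members, as far as copies with -ps symbols go. RSEM divides such reads among copies, and 299 genes of the tables are -ps copies of members; 61 members had at least 1. The copies held a median of 0.995% of the summed counts of member and copies, at least 10% in 7 members and 68.1% for Rps2, mostly in Rps2-ps10. Copies under other names, such as Rps27rt, Rpl37rt and the pseudogene members, are not counted in these shares. Rps27rt, for 1, had 203 to 257 CPM in OC+SM ovaries, beside 777 to 870 CPM for Rps27. The copies of Rps2 had 401 to 504 CPM in OC+SM ovaries, against 376 to 453 CPM in OC and 276 to 408 CPM in YC ovaries. With copies added, Rps2 averaged 669 ± 53.3 CPM in OC+SM and 607 ± 27.8 CPM in OC ovaries (SD, n = 6 each), and the groups overlapped. The log2 fold change was then 0.14 and Rps2 was no longer called (edgeR adjusted p = 0.304). Rpl32 (0.25, edgeR adjusted p = 0.0278) and Rpl5 (0.25, edgeR adjusted p = 0.0303) stayed called. Their -ps copies held only 0.016% of the summed counts for Rpl32 and 0.054% for Rpl5. Adding these copies could therefore hardly change either value, and it is no check of the 2 calls. How much of the Rps2 signal each copy gave was not tested.

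A negative log2 fold change in OC+SM minus OC was found in 6 members, and none was called. They were Rpl6l, Rpl35, Rps3a2, Rpl23a, Rpl28 and Rplp2, with values from -0.66 to -0.02. Rpl35, a large subunit protein near the exit of the peptide tunnel, spread widest among the protein coding genes. It had 426, 315, 356, 544, 525 and 646 CPM in OC+SM mice 1 to 6, against 551, 601 and 663 CPM in OC ovaries (lowest, median and highest) and 508, 572 and 576 CPM in YC ovaries. In 5 OC+SM libraries Rpl35 lay below every OC library, and in OC+SM 6 it lay inside the OC range. The difference was -0.37 ± 0.127 (log2, SE; edgeR adjusted p = 0.143), and without OC+SM 6 it was -0.48 and was called (edgeR adjusted p = 0.035). The 3 lowest libraries for Rpl35, OC+SM 1 to 3, were also those in which the most abundant gene took the smallest part of the counts, 6.2 to 10.2%, against 12.0 to 14.4% in OC+SM 4 to 6, and the part of library composition in the result was not tested. The split was not particular to Rpl35. Rpl6 had 951 to 1100 CPM in OC+SM 1 to 3 and 1403 to 1444 CPM in OC+SM 4 to 6. Rpl26 (138 to 148 against 182 to 214 CPM) and Rps9 (557 to 582 against 644 to 675 CPM) were split in the same way. Other members were split the opposite way, with higher values in OC+SM 1 to 3. Rps14 had 1604 to 1723 CPM there, against 1450 to 1502 CPM in OC+SM 4 to 6. Rpl39 had 1232 to 1310 against 1132 to 1172 CPM.

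Rpl23a, which binds nascent-chain factors at the tunnel exit, had 1698, 1893 and 2236 CPM in OC+SM ovaries, against 1918, 2076 and 2203 CPM in OC ovaries. The OC+SM values covered the whole OC range and went past it at both ends (log2 fold change -0.10 ± 0.062 SE, edgeR adjusted p = 0.441).

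**Figure D3:**
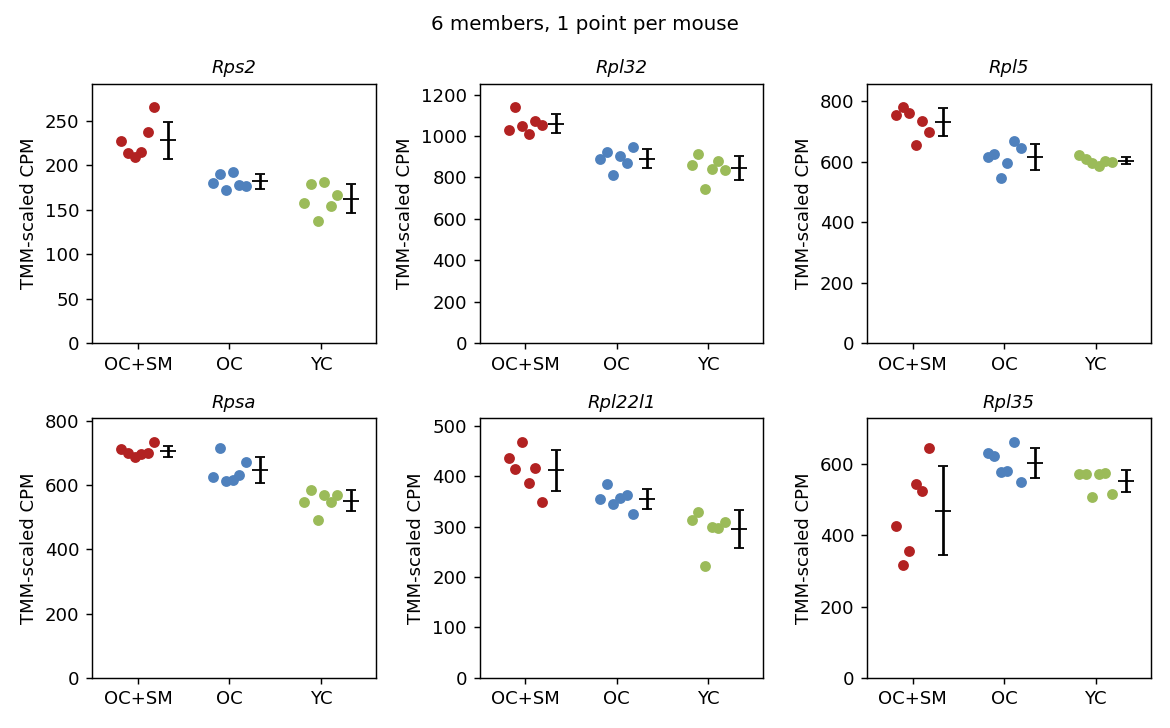
TMM-scaled CPM (y axis) of Rps2, Rpl32, Rpl5, Rpsa, Rpl22l1 and Rpl35 in OC+SM, OC and YC ovaries, 1 point per mouse with the mean ± SD at its side (n = 6). In Rps2 and Rpl32 every OC+SM point lies above every OC point, and in Rpl35 the OC+SM points run from 315 to 646 CPM.

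Depth and composition also differed between OC+SM and OC ovaries. OC+SM libraries held 14200718 to 20354251 counts, OC libraries 11612284 to 13428424 and YC libraries 9049194 to 14147392, with every OC+SM library deeper than every OC library (two-sided exact permutation p = 0.00216, the smallest that 6 against 6 allow; adjusted p = 0.00866 over 8 tests). The most abundant gene, ENSMUSG00000119584, took 6.2 to 14.4% of counts in OC+SM, 13.8 to 18.5% in OC and 12.6 to 16.0% in YC ovaries. Genes with short models also had higher values in OC+SM: the median log2 fold change was 0.05 over 3053 genes under 1000 bases and -0.04 over 2953 genes of at least 4000 bases, and 79 members are under 1000 bases. With log2 depth as a covariate no member was called and the members' median was 0.03; with the share of the most abundant gene as a covariate, or with the trend over gene length removed, no member was called either, with a median of 0.07 in the last case. With counts thinned to the depth of the shallowest library, Rps2, Rpl32 and Rpl5 were all called again and the members' median was 0.12. The same 3 members were called, with a median of 0.12, when the most abundant gene and the genes of the mitochondrial genome were taken out of the table. As a covariate, depth cannot be told apart from Samul-tang, since every OC+SM library was deeper than every OC library. The share of mitochondrial ribosomal RNA also differed, at 1.64 ± 0.412% in OC+SM and 2.33 ± 0.196% in OC ovaries (SD, n = 6 each; two-sided exact permutation p = 0.00866, adjusted p = 0.0173 over 8 tests), and its part in the members' values was not tested.

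**Figure D4:**
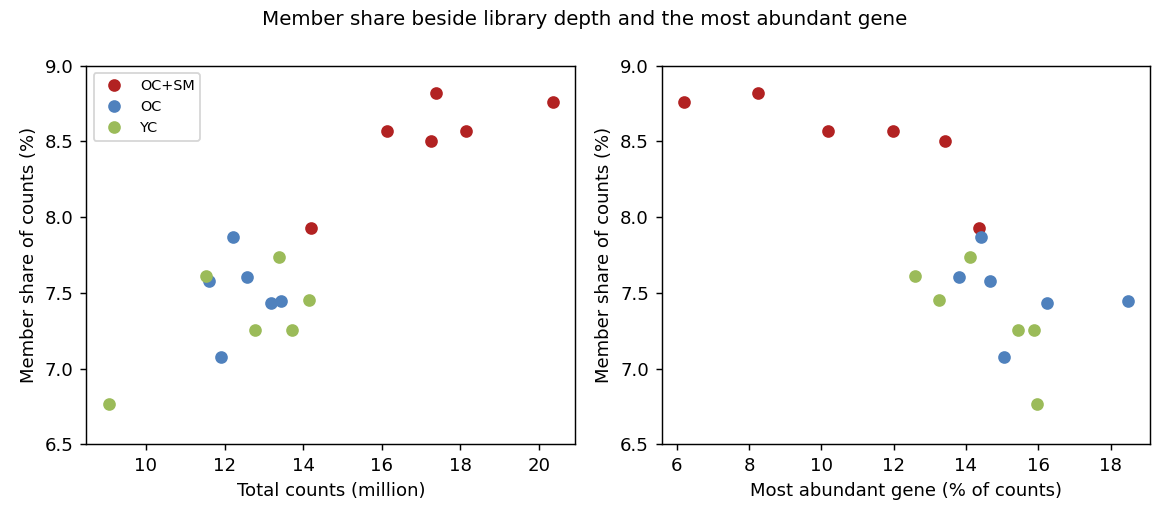
Member share of counts (y axis, %; axis from 6.5 to 9) against total counts (left, in units of 1000000) and against the share of the most abundant gene in % (right), 1 point per mouse. OC+SM points lie at 14200718 to 20354251 counts, beyond all OC points, and share and depth both separate these 2 groups.

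The comparison of OC with YC ovaries addresses age. Rpsa, Rps12l1, Rpl22l1, Rps21, Rps16 and Rpl12 rose in OC ovaries, and no member was called lower. The 6 called members of 86 are 6.98%, against 5.25% of all genes called higher, so that the share is near that of all genes. Of the 79 members with a mean of at least 100 CPM, 5 (6.33%) were called higher. That share is below the 13.1% of all genes with such a mean. Of the members, 82 had a positive log2 fold change, where 51.2% of all genes did, and the median was 0.09. That median was 0.04 with limma on log2(TPM + 1) and also with the trend over gene length removed. Of the 1493 genes with a mean of at least 100 CPM, 975 had a positive value and the median was 0.06. An unadjusted p under 0.05 was found in 531 of these 1493 genes, and 394 of the 531 were higher. Genes under 1000 bases had a median of 0.06 and genes of at least 4000 bases one of -0.02 in OC minus YC. Weighted by counts and without the most abundant gene, the mean deposited gene length was 2213 bases in OC and 2268 bases in YC ovaries (n = 6 each, two-sided exact permutation p = 0.00216, adjusted p = 0.00866 over 8 tests). At an unadjusted p under 0.05, 28 members were higher and 1 was lower, where 12.3% and 11.7% of all genes were. DESeq2 called 12 higher and 0 lower, and limma on log2(TPM + 1) called Rpsa higher and 0 lower.

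Rpsa is the small subunit protein also known as the laminin receptor. It had 613, 629 and 716 CPM in OC ovaries (lowest, median and highest), against 491, 558 and 584 CPM in YC ovaries. Every OC library lay above every YC library. Rpsa rose by a log2 fold change of 0.23 ± 0.054 (SE; edgeR adjusted p = 0.00566), and it was called under all 33 alternatives tried.

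Rpl22l1 encodes a relative of Rpl22 that can replace it in the large subunit. It had 324, 356 and 385 CPM in OC ovaries, against 222, 304 and 329.7 CPM in YC ovaries. The groups overlapped narrowly, and YC 3 was far below the other YC libraries. Rpl22l1 rose by a log2 fold change of 0.27 ± 0.080 (SE; edgeR adjusted p = 0.0303); without YC 3 the value was 0.19 and was not called (edgeR adjusted p = 0.0557).

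Rps21, a small subunit protein, averaged 1201 ± 78.6 CPM in OC and 1064 ± 32.0 CPM in YC ovaries (SD, n = 6 each; log2 fold change 0.17, edgeR adjusted p = 0.0406). Rps16, whose tail touches the transfer RNA in the small subunit, averaged 1241 ± 42.2 CPM in OC and 1123 ± 41.3 CPM in YC ovaries without overlap (SD, n = 6 each; log2 fold change 0.14, edgeR adjusted p = 0.0408). Rpl12, part of the base of the stalk, averaged 511 ± 19.3 CPM in OC and 449 ± 42.3 CPM in YC ovaries (SD, n = 6 each; log2 fold change 0.19, edgeR adjusted p = 0.049). Rps10, Rps16 and Rpsa were the 3 members whose OC values all lay above the YC values, where 3.21% of all genes did so. The calls of Rps21, Rps16 and Rpl12 lay close to the threshold; without OC 2 or OC 5, Rpsa was the 1 member called.

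The comparison of OC+SM with YC ovaries spans age and Samul-tang at once and shares its OC+SM libraries with the first comparison and its YC libraries with the second. In it 62 of 86 members rose and none fell, against 11.5% of all genes called higher and 30.7% of genes with a mean of at least 100 CPM. A positive log2 fold change was found in 82 of 86 members and in 50.3% of all genes, and the median was 0.22 (16.2% higher), against 0.00 over all genes. Of the 1493 genes with a mean of at least 100 CPM, 941 had a positive value and the median was 0.09. An unadjusted p under 0.05 was found in 863 of these 1493 genes, and 587 of the 863 were higher. In 44 members every OC+SM library lay above every YC library, where 4.85% of all genes did so. At an unadjusted p under 0.05, 71 members were higher and none lower, where 17.5% and 16.4% of all genes were. DESeq2 called 65 higher and 0 lower, and limma on log2(TPM + 1) called 58 higher and 1, Rpl35, lower.

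Rps2 had the largest value among the called members, 0.49 ± 0.070 (log2, SE; edgeR adjusted p = 2.88e-05). With its -ps copies added the value of Rps2 was 0.36, below that of Rpl22l1. Rpl22l1 had 0.48 ± 0.080 (edgeR adjusted p = 0.000161). Rpl39, a short protein lining the peptide tunnel, averaged 1214 ± 70.0 CPM in OC+SM and 937 ± 70.2 CPM in YC ovaries, without overlap (SD, n = 6 each; log2 fold change 0.37, edgeR adjusted p = 0.000162). Rps10 averaged 759 ± 22.4 CPM in OC+SM and 617 ± 25.7 CPM in YC ovaries, also without overlap (log2 fold change 0.30, edgeR adjusted p = 8.68e-05, n = 6 each). With log2 depth as a covariate 1 member, Rpl36, was called and the median was 0.12; with the share of the most abundant gene as a covariate 34 were called, and with the length trend removed 27, with a median of 0.11.

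The stalk of the large subunit is built from Rplp0 and dimers of Rplp1 and Rplp2, and it activates the elongation factors. The 3 genes did not have like values. Rplp0 averaged 1112 ± 65.4 CPM in OC+SM, 993 ± 98.0 CPM in OC and 970.3 ± 96.2 CPM in YC ovaries (SD, n = 6 each). Rplp1 averaged 2804 ± 119 CPM in OC+SM, 2639 ± 141 CPM in OC and 2361 ± 174 CPM in YC ovaries, and rose in OC+SM against YC (log2 fold change 0.25, edgeR adjusted p = 0.00262). Rplp2 averaged 1553 ± 106 CPM in OC+SM, 1578 ± 34.2 CPM in OC and 1473 ± 82.5 CPM in YC ovaries and was called in no comparison (log2 fold change -0.02 in OC+SM minus OC, with an SE of 0.054).

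Members with known roles beside the ribosome include Rpl5, called higher in OC+SM minus OC as described above, and Rps6, Rpl13a and Rps3, which were not called. Rps6, the phosphorylation target of the S6 kinases below mTORC1, averaged 1059 ± 55.7 CPM in OC+SM and 921 ± 49.8 CPM in OC ovaries (SD, n = 6 each; log2 fold change 0.20, edgeR adjusted p = 0.0636), and was called by DESeq2. Rpl13a, part of the interferon-gamma-activated translation inhibitor complex in human cells, averaged 1106 ± 62.8 CPM in OC+SM and 1077 ± 76.3 CPM in OC ovaries (log2 fold change 0.04, edgeR adjusted p = 0.828, n = 6 each). Rps3, which also acts on damaged DNA, averaged 754 ± 18.1 CPM in OC+SM and 723 ± 30.5 CPM in OC ovaries (log2 fold change 0.06, edgeR adjusted p = 0.584, n = 6 each). Rps6, Rpl13a and Rps3 rose in OC+SM against YC, by 0.24 for Rps6, 0.20 for Rpl13a and 0.20 for Rps3 on the log2 scale (edgeR adjusted p = 0.00307, 0.034 and 0.00814).

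Some members are alternative copies or only relatives of another member, and for some of these pairs ribosomes can differ in which copy they hold. Rpl22, the partner of Rpl22l1, averaged 611 ± 23.1 CPM in OC+SM, 566 ± 32.5 CPM in OC and 548 ± 18.4 CPM in YC ovaries, with a log2 fold change of 0.05 in OC minus YC (edgeR adjusted p = 0.648), beside 0.27 for Rpl22l1. Rps27l, a p53-induced relative of Rps27, averaged 169 ± 10.2 CPM in OC+SM, 154 ± 6.95 CPM in OC and 136 ± 12.9 CPM in YC ovaries, and its log2 fold change of 0.18 in OC minus YC missed the threshold (edgeR adjusted p = 0.0628); that of Rps27 was 0.07 (edgeR adjusted p = 0.483). Rpl7l1, a relative of Rpl7, averaged 56.8 ± 5.21 CPM in OC+SM, 51.7 ± 4.70 CPM in OC and 48.8 ± 5.28 CPM in YC ovaries and was called in no comparison. Whether a copy and its partner differed from each other in their change was not tested.

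The 6 members typed as processed pseudogenes ranged from 1.29 to 70.6 CPM in mean level. Rps12l1 rose in OC against YC (71.7 ± 8.14 CPM in OC and 59.4 ± 5.53 CPM in YC ovaries, SD, n = 6 each; log2 fold change 0.27, edgeR adjusted p = 0.0278). Rps3a3 had 11.1 to 14.0 CPM in OC+SM and 6.3 to 10.7 CPM in OC ovaries, without overlap (log2 fold change 0.55, edgeR adjusted p = 0.0699). Rps4l was the member lowest with age, with 9.31 to 15.9 CPM in OC and 14.3 to 21.9 CPM in YC ovaries (log2 fold change -0.50 ± 0.193 SE, edgeR adjusted p = 0.104). These 6 sequences resemble their parent genes, so reads may have passed between them, and their values are uncertain for that reason.

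Across mice the members varied as a block. The correlation of a member's log2 level with the median of the other members over the 18 libraries, which includes the differences between groups and the shared scaling, was above 0.8 in 55 members and highest for Rps25 (0.96) and Rpl19 (0.96). It was -0.35 for Rpl6l, -0.26 for Rpl35 and -0.12 for Rps4l. Against each member's own mean, the median deviation was positive in all 6 OC+SM libraries (0.07 to 0.16 on the log2 scale), between -0.11 and 0.08 in OC libraries and negative in all 6 YC libraries (-0.25 to -0.02). YC 3 was lowest at -0.25, with 3 of 86 members above their mean, and it was also the shallowest library at 9049194 counts. Without YC 3, 8 members were called in OC+SM minus OC, 3 in OC minus YC and 55 in OC+SM minus YC.

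**Figure D5:**
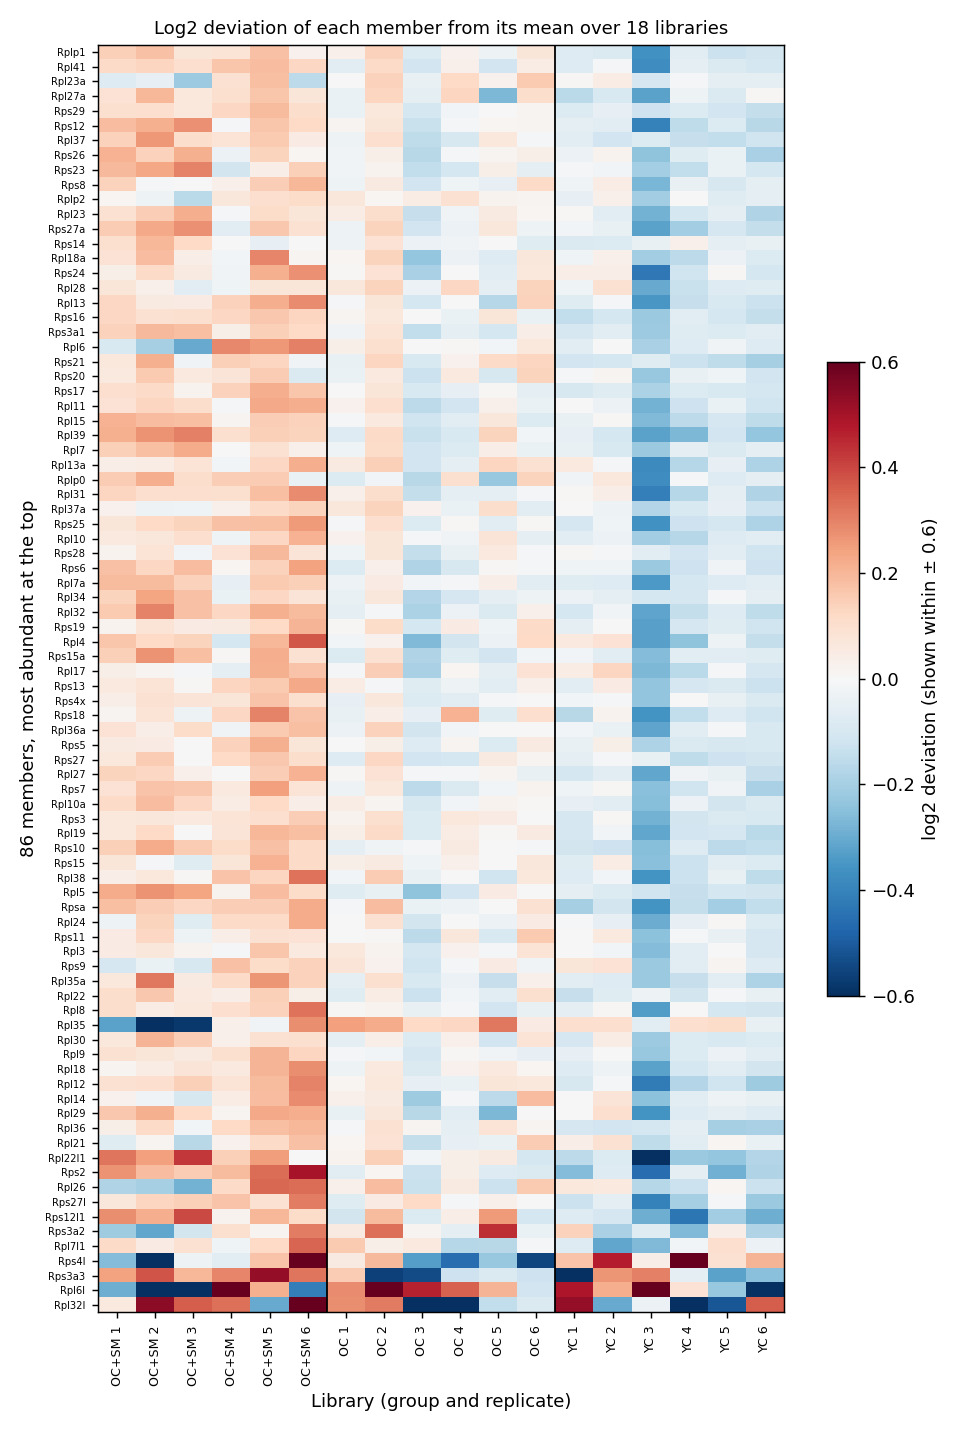
Log2 deviation of each of the 86 members (y axis, most abundant at the top) from its own mean over 18 libraries (x axis, OC+SM, OC and YC from left to right, split by black lines); red is above and blue below the mean, shown within 0.6. The YC 3 column is blue almost throughout, and the Rpl35 row runs against most others in OC+SM 1 to 3. Some other rows, among them Rpl6, Rpl26 and Rps9, are also below their means in these libraries.

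Of 6 genes that also encode ribosomal proteins or their near copies but whose symbols fall outside the rule, Rpl37rt was called higher in OC+SM against OC (40.6 ± 4.04 CPM in OC+SM and 28.4 ± 3.51 CPM in OC ovaries, SD, n = 6 each; log2 fold change 0.51, edgeR adjusted p = 0.0111). Rpl37 averaged 1981 CPM in OC+SM and 1783 CPM in OC ovaries, and how reads were divided between it and Rpl37rt was not tested. Rpl36al rose in OC against YC (log2 fold change 0.25, edgeR adjusted p = 0.0381). Fau, the precursor of Rps30, had a value of -0.01 in OC+SM minus OC (edgeR adjusted p = 0.958), and the list's median was 0.13. Among 23 translation factors and other genes with TOP mRNAs, 3 were called higher and none lower in OC+SM minus OC, with a median of 0.09. They were Eif3m (0.35), a subunit of initiation factor 3, Hnrnpa1 (0.32), an RNA-binding protein, and Naca (0.22), which binds nascent chains at the ribosome. At an unadjusted p under 0.05, 8 of the 23 were higher and 1 was lower, Pabpc1 (-0.22, edgeR adjusted p = 0.145), a poly(A)-binding protein; DESeq2 called 4 higher and 0 lower, and limma 1 higher and 0 lower. In OC minus YC the same list had a median of 0.01, with none called higher and 2 called lower. These were Nap1l1 (-0.39), a histone chaperone, and Npm1 (-0.24), a nucleolar chaperone. At an unadjusted p under 0.05, 2 were higher and 2 lower. DESeq2 called 1 higher and 2 lower, and limma 0 higher and 2 lower. In OC+SM minus YC 7 were called higher and 4 lower, with a median of 0.09.

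Genes that build ribosomes had a negative median with age, beside the positive median of the members; the lists were not tested against each other. Of 40 assembly factors of the small subunit, 3 fell in OC against YC and none rose, with a median log2 fold change of -0.11; of 47 of the large subunit, 3 fell and none rose, with a median of -0.12. These shares compare with 6.03% of all genes called lower and a median of 0.01 over all genes. Among them, Nop58, a core protein of box C/D small nucleolar ribonucleoproteins, averaged 106 ± 12.7 CPM in OC and 136 ± 6.44 CPM in YC ovaries (SD, n = 6 each; log2 fold change -0.36, edgeR adjusted p = 0.0187). Nvl, an ATPase of large subunit assembly, averaged 40.4 ± 3.84 CPM in OC and 49.9 ± 4.79 CPM in YC ovaries (log2 fold change -0.30, edgeR adjusted p = 0.0114, n = 6 each). Nmd3, the export adaptor of the large subunit, had a log2 fold change of -0.28 (edgeR adjusted p = 0.0279). At an unadjusted p under 0.05, 1 was higher and 7 lower for the small subunit, and 0 were higher and 10 lower for the large. DESeq2 called 0 higher and 3 lower, and 0 higher and 4 lower; limma on log2(TPM + 1) called 0 higher and 2 lower, and 0 higher and 4 lower.

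In OC+SM against OC, no assembly factor of either list was called by edgeR; the medians were 0.08 and 0.06, 7 and 3 factors were higher and 1 and 2 lower at an unadjusted p under 0.05, and DESeq2 called 1 higher in the first list and 1 lower in the second. Of 33 regulators of ribosomal protein genes, Cnbp, a zinc finger protein that binds TOP mRNAs, was called higher (log2 fold change 0.32, edgeR adjusted p = 0.0242), and Rps6ka2, a kinase downstream of ERK, lower (-0.94, edgeR adjusted p = 0.0215). Mycn fell in OC against YC (5.07 ± 0.787 CPM in OC and 9.54 ± 2.03 CPM in YC ovaries, SD, n = 6 each; log2 fold change -0.91, edgeR adjusted p = 0.00116). Of 13 genes tested for RNA polymerase I and its factors, 1 fell with age, Taf1a (-0.46, edgeR adjusted p = 0.0353). None of the 13 was called in OC+SM minus OC, where 0 were higher and 2 lower at an unadjusted p under 0.05 and DESeq2 called none. Mitochondrial ribosomal protein genes, 78 in number, had medians of 0.11 in OC+SM minus OC with 3 called higher and none lower, and of 0.07 in OC minus YC with 5 called higher and none lower. Members of the cytosolic set were not tested against them. Of 11 host genes of small nucleolar RNAs, 14 H/ACA and nucleolar factors and 18 genes of ribosome rescue, edgeR called none in OC+SM minus OC (1, 3 and 1 higher and 0, 0 and 2 lower at an unadjusted p under 0.05; DESeq2 called 1 higher in the second list and limma none). In OC minus YC their medians were -0.01, -0.15 and -0.02, with 0, 1 and 1 called higher and 1, 2 and 0 lower.

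Marker mRNAs of ovarian cell types also differed with age, which in a whole ovary cannot be read as numbers of cells. Of the 68 markers tested, 10 rose and 22 fell in OC against YC. All 12 oocyte markers tested fell in OC against YC, with summed levels of 40.5 to 71.0 CPM in OC and 133 to 200.0 CPM in YC ovaries, and of the defining markers Figla had at most 11 counts in any library. Of 10 luteal and steroidogenic markers 3 rose, with sums of 16552 to 19151 CPM in OC and 11004 to 15366 CPM in YC ovaries. Of 9 granulosa markers 5 fell, and Amh, a granulosa marker, had at most 3 counts. Of 9 macrophage markers 3 rose, and 6 of the 9 had a positive value. Of 8 theca and interstitial markers 4 fell and 0 had a positive value. Of 5 B, plasma and T cell markers 3 rose. Between OC+SM and OC ovaries none of the 68 markers tested was called by edgeR (8 were higher and 4 lower at an unadjusted p under 0.05, and DESeq2 called 2 higher), and the summed luteal markers were 17011 to 19826 CPM in OC+SM and 16552 to 19151 CPM in OC ovaries. The part of cell type make-up in the members' values was not tested.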

How the data were processed

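RNA of 18 mouse ovaries was made into QuantSeq 3′ libraries, according to the labels' protocols. Tools and build, per the submitters' processing notes, were FastQC 1.9, STAR 2.7.9a and RSEM 1.3.3 with GRCm39. Each deposited table holds RSEM expected counts and TPM per gene, per the file headers; RSEM shares reads among near-identical genes, and 3.17% of the members' expected counts were whole (within 0.005). The authors' TPM values divide by effective gene length and were used for levels between genes and as an alternative. The sources used here give neither annotation nor strand setting, so overlapping and antisense genes may share reads. Symbols, and the types of genes, came from GENCODE M21 on GRCm38 by gene identifier (52083 of 55416 matched). No pair of libraries agreed within sampling noise (lowest chi-square per degree of freedom 3.91 over 153 pairs).

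Expected counts were rounded and scaled by TMM (factors 0.94 to 1.07). The edgeR 4.0.16 quasi-likelihood test (R 4.3.3, filter by group, robust, two-sided) was fitted on 16959 genes with 3 group means over 18 libraries, with Benjamini-Hochberg adjustment over all genes; calls are at an adjusted p under 0.05. SE is the absolute log2 fold change over the root of F. Alternatives used DESeq2 1.42.0, limma 3.58.1 on log2(TPM + 1) and log2(TPM + 0.1), other scalings, filters, covariates and left-out libraries; the fits were tested on simulated data. Library measures were compared by exact permutation over 924 regroupings. The members, lists and alternatives were chosen with earlier results of these data known. Members were named by rule: in each comparison up to 8 called members with the smallest p (4 where fewer than 4 were called), the alternative copies with their partners, the stalk genes, members with roles beside the ribosome, and the extremes of level and variation; of other lists up to 3 called genes. Rpl35, Rpl23a, Rpl28, Rpl8, Rpl9, Rps25, Rpl19, Rps29, Rpl41, Rpl36, Rpl37, Rpl6, Rpl26, Rps9, Rps14 and the pseudogene members were also named after their values were seen. The labels do not say that equal replicate numbers mark a shared animal, cage or day.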

Additional observations from a re-analysis of the deposited data

Results flagged for a closer look

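In a group of 6 mice a value was set aside for a closer look where its gap to the nearest other mouse took an unusually large part of the group's range; chance gives this in about 1 in 20 groups, and 8 of 111 groups looked at had it. In YC ovaries the same library, YC 3, was far below the others for 5 members. Rps15a had 746 CPM in YC 3, where the other 5 mice had 849 to 882 CPM. Rpl22l1 had 222 CPM there, against 297 to 329.7 CPM in the others. Rpl7 had 906 CPM, against 990.3 to 1026 CPM in the others. Rplp0 had 787 CPM, against 966 to 1066 CPM in the others. Rplp1 had 2016 CPM, against 2373 to 2479.6 CPM in the others. YC 3 also had the fewest counts (9049194) and the largest mitochondrial ribosomal RNA share (3.01%), and their part in these values was not tested.

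In OC+SM ovaries Rpl7l1 was highest in OC+SM 6, at 66.6 CPM, where the other 5 mice had 51.2 to 56.7 CPM. The members' share of counts was lowest in OC+SM 4, at 7.93%, where the other 5 OC+SM mice had 8.499 to 8.82%. The ratio of large to small subunit counts was lowest in OC 5, at 1.346, where the other 5 OC mice had 1.371 to 1.382.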

How the results depend on the processing

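The members' median log2 fold change stayed positive in all 3 comparisons under all 33 alternatives, and none of the 18 results followed for single members changed sign. The counts of calls did not hold in the same way. In OC+SM minus OC (3 members higher, 0 lower, 176 of all genes called), DESeq2 called 15 members and 663 genes, limma 8 members at either pseudocount, and a fit on the 12 libraries compared 1 member and 45 genes. The share of the most abundant gene or log2 depth as a covariate left 0 members and 0 genes, with a median member log2 fold change of 0.033 for depth; with the gene length trend removed, 0 members and a median member log2 fold change of 0.069 remained. Leaving out YC 3 and OC+SM 6, the 2 libraries that correlate least with the others of their own group (chosen after seeing the data), gave 10 members higher, 1 lower (Rpl35) and 483 genes. Leaving out 1 library gave 0 to 10 members higher, 0 to 1 lower and 32 to 593 genes: 0 without OC+SM 1 or OC 3, 1 without OC+SM 2, OC+SM 3 or OC 4, 2 without OC 1 or OC 6, 8 without YC 3 and 10 without OC+SM 4.

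In OC minus YC (6 higher, 0 lower), DESeq2 called 12 members, limma 1 at either pseudocount, upper quartile scaling 3, no filter on low counts 3, the abundant-gene covariate 13 and the length trend removed 1. Rps4l was the 1 member called lower in the fit on 12 libraries and without the 2 libraries. Leaving out 1 library gave 1 to 7 higher and 0 to 1 lower; 1 without OC 2 or OC 5, 2 without YC 4 or YC 6, and 3 without OC 1, OC 4, YC 1 or YC 3. In OC+SM minus YC (62 higher), the abundant-gene covariate left 34 members and 1368 genes, the depth covariate 1 member, 510 genes and a median of 0.12, and the length trend removed 27 members and a median of 0.11. Limma called 1 lower at either pseudocount, the fit without the 2 libraries 2 lower, and leaving out 1 library 0 to 2 lower. Without the most abundant gene and the mitochondrial genome genes the ratio of mean shares was 1.07 for OC+SM over OC and 1.11 for OC+SM over YC. Thinning to the shallowest library left 3, 4 and 60 members called higher in the 3 comparisons, and taking out the most abundant gene and mitochondrial genome genes 3, 5 and 59. The median of OC minus YC ranged from 0.04 to 0.11. The cause of these differences was not tested, except that fewer libraries entered where some were left out.

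For mice with equal replicate numbers the correlations of their deviations from the group means ran from -0.12 to 0.07. Such values cannot show whether these mice shared a cage or a day. With the replicate number as a block, 3, 7 and 64 members were called higher in the 3 comparisons. At 9049194 to 20354251 counts per library, a member of 1 CPM rested on about 9 to 20 counts.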
